A study of Prunus avium with 6 samples.

Results

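The 2 sweet cherry (Prunus avium) genes described here are chorismate mutase 2 (Pav_sc0000890.1_g420.1.mk) and flavonoid 3'-monooxygenase (Pav_sc0000877.1_g1900.1.br), of 43673 predicted genes in the files. They were picked by name, with their unique reads over the 6 libraries and the fruit colours of the cultivars in view. Their own levels are therefore a description and carry no test. The libraries were made from ripe fruits and from leaves of ‘Bing’, ‘Lapins’ and ‘Rainier’, collected in Chile in 2012, with 1 library for each cultivar and tissue. The fruit libraries came from fruits harvested at commercial maturity, listed by the study as dark mahogany in ‘Bing’, red mahogany in ‘Lapins’ and bicolour in ‘Rainier’. ‘Bing’ was grown in Quillota, ‘Lapins’ in Los Andes and ‘Rainier’ in San Francisco de Mostazal, so cultivar and site cannot be told apart. Whether several trees were pooled, and whether fruit skin and flesh were separated, is not given in the sources used here.

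Chorismate mutase turns chorismate, the end product of the shikimate pathway, into prephenate, the precursor of phenylalanine and tyrosine. Phenylalanine is the entry substance of the phenylpropanoid and flavonoid pathways, from which lignin, flavonols and anthocyanins are made. In Arabidopsis the isoform named chorismate mutase 2 is cytosolic and is not inhibited by aromatic amino acids. Flavonoid 3'-monooxygenase is a cytochrome P450 that adds a hydroxyl group to the B-ring of flavonoids and so leads to quercetin and to cyanidin. Cyanidin glycosides are the main red pigments of sweet cherry skin and flesh.

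Fruit libraries held 116264 unique reads for ‘Bing’, 74371 for ‘Lapins’ and 83953 for ‘Rainier’, and leaf libraries 89009, 70058 and 70196. A gene without a read can still have a level of up to 3 reads, which was between 0.258 and 0.428 per 10000 unique reads. The 10 most read genes of a library took between 8.51% and 16.5% of the unique reads in fruit, and between 6.33% and 9.26% in leaf. The tissue labels were checked with the chlorophyll a-b binding protein gene of the annotation, which had 0, 0 and 1 reads in fruits and 57, 48 and 55 reads in leaves. An NDH subunit gene of the chloroplast had 0 reads in every fruit library and 4, 10 and 9 reads in leaves. The 3 fruit softening genes fixed as fruit markers did not separate the tissues. A polygalacturonase and an expansin had 0 reads in all 6 libraries, and a second polygalacturonase gene had 1 or 2 reads in each library. All intervals are exact 95% intervals and cover counting error only, with no replicate of any cultivar and tissue behind them.

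Chorismate mutase 2 was read in all 6 libraries, with 236 unique reads in total, 163 of them in fruit and 73 in leaf. It had 29, 59 and 75 reads in fruits of ‘Bing’, ‘Lapins’ and ‘Rainier’ and 28, 9 and 36 reads in the matching leaves. Set against the library sums, the fruit levels were 2.49 (1.67 to 3.58), 7.93 (6.04 to 10.2) and 8.93 (7.03 to 11.2) reads per 10000. The leaf levels were 3.15 (2.09 to 4.55), 1.28 (0.587 to 2.44) and 5.13 (3.59 to 7.10) reads per 10000. Fruit of ‘Lapins’ and of ‘Rainier’ stood at the top, fruit of ‘Bing’ was about level with its own leaf, and leaf of ‘Lapins’ had the lowest level. The levels of fruit and leaf overlapped, since ‘Bing’ fruit lay below the leaves of ‘Bing’ and of ‘Rainier’. Over the cultivars the level averaged 6.45 ± 3.47 reads per 10000 in fruit and 3.19 ± 1.92 in leaf (SD, n = 3 each). No read of the gene matched more than 1 place equally well.

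Flavonoid 3'-monooxygenase was read in all 6 libraries too, with 88 unique reads in total, 73 of them in fruit and 15 in leaf. It had 32, 37 and 4 reads in fruits of ‘Bing’, ‘Lapins’ and ‘Rainier’ and 6, 5 and 4 reads in the matching leaves. The fruit levels were 2.75 (1.88 to 3.89), 4.98 (3.50 to 6.86) and 0.476 (0.130 to 1.22) reads per 10000. The leaf levels were 0.674 (0.247 to 1.47), 0.714 (0.232 to 1.67) and 0.570 (0.155 to 1.46) reads per 10000. The mahogany fruits of ‘Bing’ and ‘Lapins’ stood above the other 4 libraries, and their intervals did not overlap with those of any leaf. Bicolour ‘Rainier’ fruit had the lowest level of the 6 and lay within the interval of every leaf. The level averaged 2.73 ± 2.25 reads per 10000 in fruit and 0.653 ± 0.0743 in leaf (SD, n = 3 each), so nearly all of the spread was among fruits. This gene also had no read that matched several places. In bulk tissue, fewer cells that use a gene and less of its RNA per cell cannot be told apart.

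**Figure D1:**
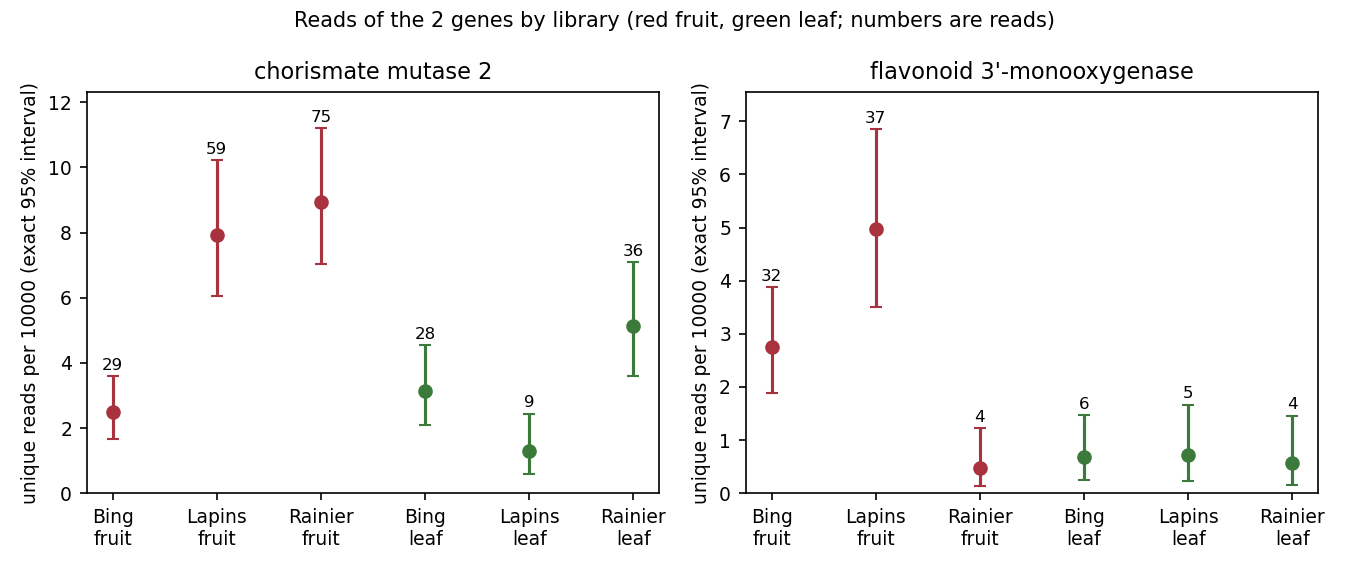
Unique reads per 10000 (vertical axis) of chorismate mutase 2 (left) and flavonoid 3'-monooxygenase (right) in the 6 libraries, fruit in red and leaf in green. Points are single libraries, bars are exact 95% intervals for counting error, and the numbers are reads: chorismate mutase 2 is highest in ‘Rainier’ fruit at 8.93 and flavonoid 3'-monooxygenase in ‘Lapins’ fruit at 4.98, while ‘Rainier’ fruit has 4 reads of the second gene.

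Between fruits, the level of chorismate mutase 2 in ‘Bing’ was 0.314 times that in ‘Lapins’ (0.194 to 0.498) and 0.279 times that in ‘Rainier’ (0.175 to 0.434). ‘Lapins’ and ‘Rainier’ fruit differed by less than the counting error, at a ratio of 0.888 (0.620 to 1.27). The highest fruit level was 3.58 times the lowest. Between leaves, ‘Bing’ was 2.45 times ‘Lapins’ (1.12 to 5.90), ‘Bing’ was 0.613 times ‘Rainier’ (0.361 to 1.03), and ‘Lapins’ was 0.250 times ‘Rainier’ (0.106 to 0.530). The highest leaf level was 3.99 times the lowest, so the cultivars spread about as widely in leaf as in fruit. The place of ‘Lapins’ differed between the tissues: its leaf was the lowest of the leaves and its fruit was close to the highest of the fruits.

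For flavonoid 3'-monooxygenase the order of the fruits was another one. ‘Bing’ fruit was at 0.553 times ‘Lapins’ fruit (0.334 to 0.913) and at 5.78 times ‘Rainier’ fruit (2.05 to 22.5). ‘Lapins’ fruit was at 10.4 times ‘Rainier’ fruit (3.75 to 40.3). The upper ends of the last 2 intervals are wide because ‘Rainier’ fruit had 4 reads. Between leaves the ratios were 0.945 (0.240 to 3.91) for ‘Bing’ over ‘Lapins’, 1.18 (0.281 to 5.70) for ‘Bing’ over ‘Rainier’ and 1.25 (0.270 to 6.31) for ‘Lapins’ over ‘Rainier’. No difference between leaves was detectable at 4 to 6 reads, and these intervals still allow changes of more than 3-fold in either direction.

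Set against its own leaf, ‘Lapins’ fruit was higher in both genes. The ratio of fruit over leaf in ‘Lapins’ was 6.18 (3.04 to 14.2) for chorismate mutase 2 and 6.97 (2.73 to 22.7) for flavonoid 3'-monooxygenase. In ‘Bing’ the ratios parted, at 0.793 (0.455 to 1.38) for chorismate mutase 2 and 4.08 (1.68 to 11.9) for flavonoid 3'-monooxygenase. In ‘Rainier’ they parted the other way, at 1.74 (1.16 to 2.67) for chorismate mutase 2 and 0.836 (0.156 to 4.49) for flavonoid 3'-monooxygenase. Each gene thus had a fruit level above that of the leaf in 2 of the 3 cultivars, and the cultivar without it was ‘Bing’ for the first gene and ‘Rainier’ for the second. The mean log2 ratio of fruit over leaf was 1.03 ± 1.49 for chorismate mutase 2 and 1.52 ± 1.59 for flavonoid 3'-monooxygenase (SD, n = 3 cultivars each), a spread as large as the mean.

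**Figure D2:**
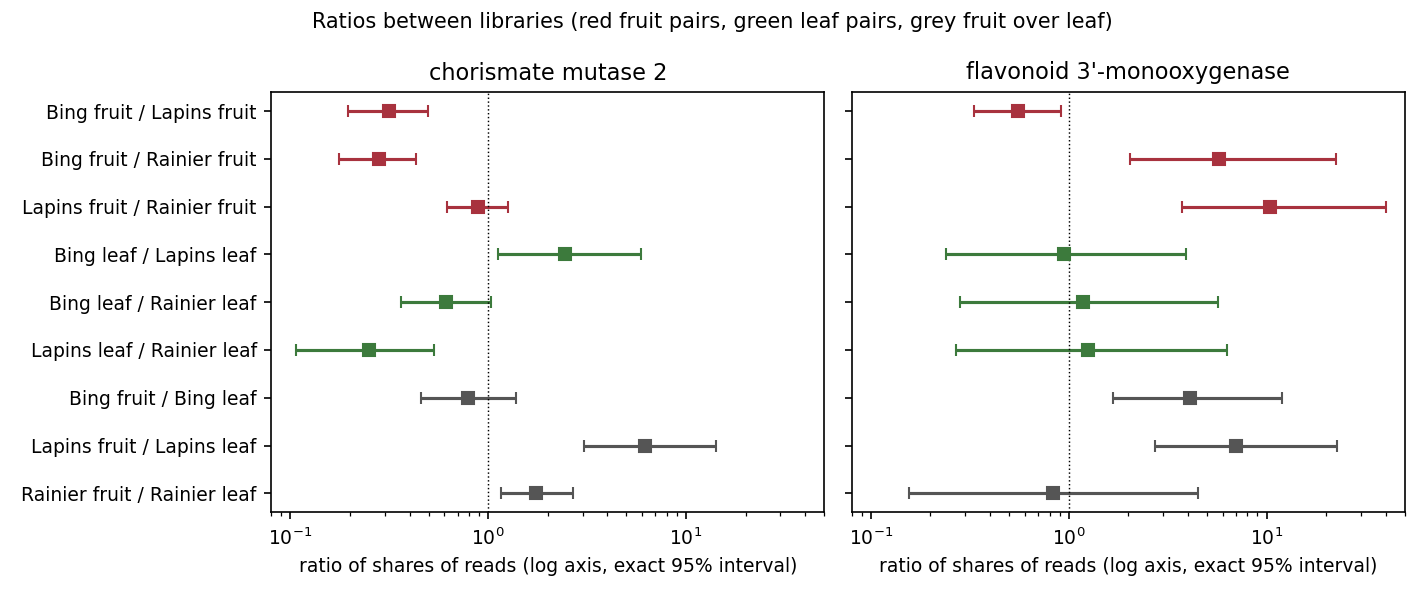
Ratio of the shares of unique reads between 2 libraries (horizontal log axis, dotted line at 1) for chorismate mutase 2 (left) and flavonoid 3'-monooxygenase (right). Squares are ratios and bars exact 95% intervals for counting error: the fruit pairs (red) with ‘Bing’ on top lie below 1 for the first gene at 0.314 and 0.279, and the pairs over ‘Rainier’ fruit lie above 1 for the second at 5.78 and 10.4.

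A model over all genes that passed a filter on low counts, with the cultivars as replicates of a tissue, gave chorismate mutase 2 a log2 fold change of fruit over leaf of 0.86 (SE 0.55). The value was 0.38 without ‘Lapins’ leaf, 1.30 without ‘Rainier’ leaf and 1.29 without ‘Bing’ fruit, so single libraries moved it most. Flavonoid 3'-monooxygenase did not pass the filter, which asks for enough reads in 3 libraries. Without the filter its fitted log2 fold change was 1.97 (SE 0.59). With the filter, it passed when ‘Rainier’ fruit was left out, at 2.45, and when any 1 leaf was left out, at 1.71 to 1.84. These values thus differ in filter and in libraries. No p is given for either gene, since both were picked on these reads.

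The ratio between the 2 genes within a library does not depend on the library sum. Flavonoid 3'-monooxygenase made up 52.5% (39.3 to 65.4) of the reads of both genes in ‘Bing’ fruit, 32 of 61, and 38.5% (28.8 to 49.0) in ‘Lapins’ fruit, 37 of 96. In ‘Rainier’ fruit its share was 5.06% (1.40 to 12.5), 4 of 79 reads. The interval of ‘Rainier’ fruit lay below those of the other fruits, which overlapped with each other. In leaves the share was 17.6% (6.76 to 34.5) in ‘Bing’, 35.7% (12.8 to 64.9) in ‘Lapins’ and 10% (2.79 to 23.7) in ‘Rainier’, on 34, 14 and 40 reads. The intervals of the 3 leaves overlapped. Per kilobase of coding length (762 bases for chorismate mutase 2 and 1239 bases for flavonoid 3'-monooxygenase), the level of the first over that of the second was 1.47, 2.59 and 30.5 in fruits and 7.59, 2.93 and 14.6 in leaves, in the same order of cultivars. The share of flavonoid 3'-monooxygenase on this scale was 40.4%, 27.8% and 3.18% in fruits and 11.6%, 25.5% and 6.40% in leaves. After this correction for length the point value of chorismate mutase 2 was the higher of the pair in all 6 libraries, without intervals on this scale. In reads, the interval of the first gene over the second spanned 1 in ‘Bing’ fruit (0.529 to 1.55) and in ‘Lapins’ leaf (0.542 to 6.84). The order of the pair is thus not settled in these libraries.

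**Figure D3:**
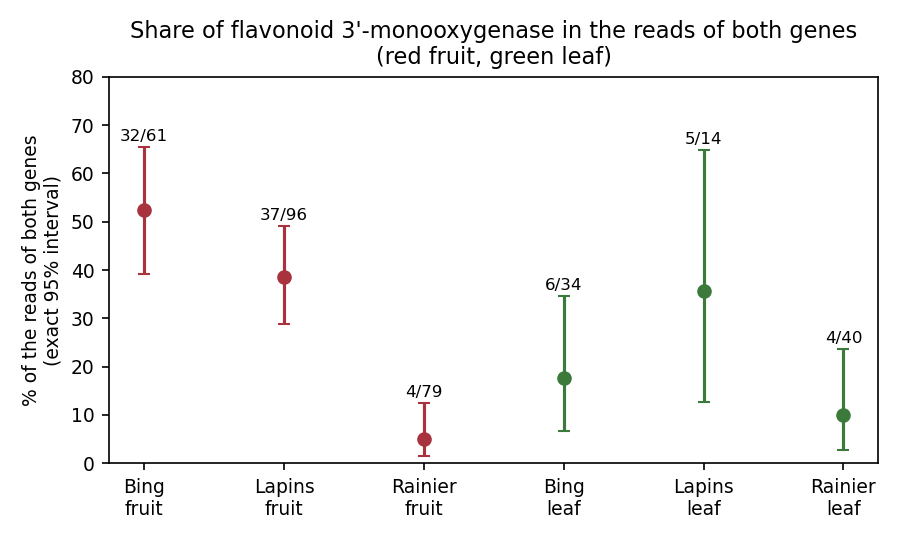
Share of flavonoid 3'-monooxygenase in the unique reads of both genes (vertical axis, percent) in each library, fruit in red and leaf in green, with exact 95% intervals and the reads behind each point. ‘Bing’ and ‘Lapins’ fruit lie at 52.5% and 38.5%, and ‘Rainier’ fruit at 5.06%.

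Ordered from high to low, the levels of chorismate mutase 2 ran from ‘Rainier’ fruit over ‘Lapins’ fruit, ‘Rainier’ leaf, ‘Bing’ leaf and ‘Bing’ fruit to ‘Lapins’ leaf. Of the 5 steps between neighbours in this order, the interval of the ratio left out 1 only for ‘Lapins’ fruit over ‘Rainier’ leaf, at 1.55 (1.01 to 2.41). With TMM library sizes that interval, 0.955 to 2.29, spanned 1, and the interval of ‘Rainier’ leaf over ‘Bing’ leaf, 1.02 to 2.92, did not. Which step leaves out 1 thus changed with the library sizes used. The levels of flavonoid 3'-monooxygenase ran from ‘Lapins’ fruit over ‘Bing’ fruit, ‘Lapins’ leaf, ‘Bing’ leaf and ‘Rainier’ leaf to ‘Rainier’ fruit. Here the step of ‘Lapins’ fruit over ‘Bing’ fruit was 1.81, the inverse of the ratio above, with an interval above 1, and that of ‘Bing’ fruit over ‘Lapins’ leaf was 3.86 (1.49 to 12.7). The last 4 libraries could not be told apart, with steps of 1.06 (0.256 to 4.16), 1.18 (0.281 to 5.70) and 1.20 (0.223 to 6.42).

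Within its library chorismate mutase 2 was among the more abundant genes. It held place 724 in ‘Bing’ fruit, 128 in ‘Lapins’ fruit and 82 in ‘Rainier’ fruit, and more reads than 93.1%, 98.6% and 99.1% of the genes with a read there. In leaves it held places 500, 1591 and 246 and had more reads than 95.3%, 82.6% and 97.5% of the genes read. Flavonoid 3'-monooxygenase held place 634 in ‘Bing’ fruit, 269 in ‘Lapins’ fruit and 3573 in ‘Rainier’ fruit, with more reads than 94.0%, 97.0% and 55.2% of the genes read. In leaves it had more reads than 67.2%, 66.5% and 59.5%. It was thus a gene of middling abundance in ‘Rainier’ fruit and in every leaf.

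The study called a gene between 2 cultivars by a ratio of at least 2, an unadjusted p of at most 0.05 for the difference of their shares, and a minimum of 10 reads. Its methods do not say whether 1 or both of the libraries had to reach this minimum, so calls were first made with 10 reads in at least 1 of them. In fruit 1 of the 2 genes, chorismate mutase 2, met these criteria for ‘Bing’ over ‘Lapins’, where 35.6% of the 3220 genes with enough reads did. Both met them for ‘Bing’ over ‘Rainier’ (33% of 3259 genes), in opposite directions, and flavonoid 3'-monooxygenase alone for ‘Lapins’ over ‘Rainier’ (15.9% of 2144 genes). In leaf chorismate mutase 2 met them for ‘Bing’ over ‘Lapins’ (23.4% of 2470 genes) and for ‘Lapins’ over ‘Rainier’ (21.1% of 1966 genes), and neither gene for ‘Bing’ over ‘Rainier’ (23.4% of 2395 genes). Flavonoid 3'-monooxygenase had under 10 reads in each leaf and could not meet them there. With 10 reads asked in both libraries, the calls of chorismate mutase 2 in fruit were kept, for ‘Bing’ over ‘Lapins’ (23.4% of 1369 genes called) and for ‘Bing’ over ‘Rainier’ (20.6% of 1473). Flavonoid 3'-monooxygenase then had no call over ‘Rainier’ fruit, which had 4 of its reads, neither for ‘Bing’ nor for ‘Lapins’ (7.37% of 1303). Chorismate mutase 2 had none in the leaf pairs with ‘Lapins’, which had 9 reads, where 13.6% of 1269 genes were called for ‘Bing’ over ‘Lapins’ and 10.9% of 1099 for ‘Lapins’ over ‘Rainier’, and none for ‘Bing’ over ‘Rainier’ leaf (13.9% of 1229). Its call for ‘Bing’ over ‘Lapins’ leaf was also lost with adjusted p. The pairs share libraries and the genes were picked on these reads, so nothing is read from the counts.

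The size of each ratio can be placed among those of the genes with enough reads in the same pair, again as a description. The ratio of chorismate mutase 2 in ‘Bing’ over ‘Lapins’ fruit had 7.45% of genes below it, and that in ‘Bing’ over ‘Rainier’ fruit had 5.65%. The median ratio of the genes compared was 1.32 and 1.35 in these pairs, so the set leaned towards ‘Bing’. In ‘Lapins’ over ‘Rainier’ leaf 3.20% of genes had a lower ratio. For flavonoid 3'-monooxygenase 0.746% of genes, 16 of 2144, had a higher ratio in ‘Lapins’ over ‘Rainier’ fruit, and 7.30% had one in ‘Bing’ over ‘Rainier’ fruit. In ‘Bing’ over ‘Lapins’ fruit 17.9% of genes lay below it. By this placing, the ratio of flavonoid 3'-monooxygenase in ‘Lapins’ over ‘Rainier’ fruit was the most extreme that either gene showed. The gene entered the pairs over ‘Rainier’ fruit only by its reads in ‘Lapins’ (37) and ‘Bing’ (32), with 4 in ‘Rainier’. With 10 reads asked in both libraries it would not be among the genes compared there. The same holds for chorismate mutase 2 in ‘Lapins’ over ‘Rainier’ leaf, with 9 reads in ‘Lapins’ leaf.

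Genes set beside the 2 genes, by branch point, pigment or gene family, were taken from the part of the study's annotation used here. That part lists 581 genes. They form 6 lists with 32 genes, of which 16 had unique reads. Over the 6 libraries 16519 of all 43673 genes had such reads, and 266 of the 428 genes with an informative description. Of the listed genes, 3 had enough reads for the test of fruit against leaf. With edgeR's quasi-likelihood test and Benjamini-Hochberg adjustment, 1 of the 3 was higher in fruit, 1 was lower and 1 did not pass, while 45.7% of all 1864 genes tested passed. No other enzyme of the steps between phenylalanine and the anthocyanins stands in that part of the table, so the lists cover the surroundings of the 2 genes and not the pathway itself.

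At the chorismate branch point, the list held the beta subunit of anthranilate synthase (Pav_sc0000893.1_g800.1.mk), which works on the competing route from chorismate to tryptophan. It had 3, 4 and 3 reads in fruits and 4, 2 and 3 reads in leaves, in the same order of cultivars. Its level averaged 0.384 ± 0.142 reads per 10000 in fruit and 0.387 ± 0.0890 in leaf (SD, n = 3 each). The means of the 2 tissues were thus nearly alike. Counts of 2 to 4 reads do not show whether the level was even over the libraries, and were too few for the test. Chorismate mutase 2 had more reads than this gene in every library.

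Anthocyanin genes are switched on in many plants by complexes of MYB and bHLH transcription factors, and 7 MYB and bHLH genes formed a second list. They were taken by family: EGL1-like, bHLH111, PIF7-like, the repressor MYB6, MYB13-like, myb-related Hv1-like and At1g14600. No description names a MYB activator of anthocyanin genes, so the list does not show whether such regulators were read in fruit. None of the 7 had a read in any fruit, where a count of 0 allows up to 0.258, 0.403 and 0.357 reads per 10000 in ‘Bing’, ‘Lapins’ and ‘Rainier’. In leaves 4 of them had reads, with 3 reads of the EGL1-like bHLH gene in ‘Bing’ as the highest count. EGL1 proteins act in anthocyanin and trichome regulation in Arabidopsis and its relatives. None was tested, and the depth does not show whether they were used in fruit at a low level.

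The list for conjugation and transport held 7 genes of glycosyl-, methyl-, acyl- and glutathione transferases and a transporter, taken by family. Steps of these kinds prepare flavonoids for the vacuole, but none of the descriptions names a flavonoid. The acyltransferase is described as brassinosteroid-related. Only the transporter, DETOXIFICATION 33 (Pav_sc0000890.1_g1470.1.mk), had reads. This member of the MATE family, whose relatives carry flavonoids into the vacuole in several plants, had 2, 5 and 2 reads in fruits and 11, 7 and 14 reads in leaves. Each fruit had a lower point level than each leaf, at 0.361 ± 0.272 reads per 10000 in fruit and 1.41 ± 0.520 in leaf (SD, n = 3 each). The counts were low, with 5 reads in fruit and 7 in leaf of ‘Lapins’, and no intervals were set on these levels. The gene had too few reads for the test. The lignin-forming peroxidase of the annotation, a gene of the other large use of phenylpropanoids, had 0 reads in all 6 libraries.

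Of 4 genes for carotenoid and chlorophyll pigments, 2 had reads. A gene annotated as geranylgeranyl diphosphate chloroplastic (Pav_sc0000877.1_g840.1.mk), geranylgeranyl diphosphate being a precursor of carotenoids and of the side chain of chlorophyll, had 5, 3 and 1 reads in fruits and 35, 39 and 50 reads in leaves. In fruit it fell by 4.15 on the log2 scale (SE 0.57, adjusted p = 2.18e-05 in edgeR), and was lower in fruit in 3 of 3 cultivars. Its ‘Rainier’ pair had the widest gap, with 1 read in fruit and 50 in leaf. Carotenoid cleavage dioxygenase 1 (Pav_sc0000882.1_g260.1.mk), which cuts carotenoids to volatile compounds, had 10, 5 and 4 reads in fruits and 8, 8 and 1 reads in leaves and was not tested. Both beta-carotene hydroxylase genes had 0 reads.

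Flavonoid 3'-monooxygenase was 1 of 13 cytochrome P450 genes in the annotation used, of which 9 had unique reads, 6 of them in fruit and 8 in leaf. Per kilobase of coding length it had the second highest level of these by the mean over the fruits, 2.21 reads per 10000. Only a CYP82D47-like gene was higher, at 4.92. In ‘Rainier’ fruit flavonoid 3'-monooxygenase had 4 reads, fewer than this CYP82D47-like gene (44), another CYP82D47-like gene (9) and allene oxide synthase (8). By the mean over the leaves it was the third, at 0.527 reads per 10000 per kilobase. Above it were allene oxide synthase at 1.88 and a gene of the fatty acid hydroxylases of the P450 family at 0.592. The CYP82D47-like gene with the highest fruit level, Pav_sc0000890.1_g1250.1.mk, had 128, 52 and 44 reads in fruits and 2, 10 and 2 reads in leaves. It rose in fruit by 3.49 on the log2 scale (SE 0.63, adjusted p = 0.000239 in edgeR), in 3 of 3 cultivars. It has near copies, and 16 further reads matched it and another place, so its count is less certain. Allene oxide synthase (Pav_sc0000890.1_g1300.1.mk), a P450 of jasmonate synthesis, had 17, 21 and 8 reads in fruits and 38, 11 and 21 reads in leaves, a log2 fold change of -0.91 (SE 0.51, adjusted p = 0.158 in edgeR) that did not pass.

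Between ‘Bing’ and bicolour ‘Rainier’ fruit, the most read P450 gene of the annotation used gave a smaller ratio than flavonoid 3'-monooxygenase. ‘Bing’ fruit was at 2.10 times ‘Rainier’ fruit (1.48 to 3.03) for the CYP82D47-like gene. For flavonoid 3'-monooxygenase it was at 5.78 times (2.05 to 22.5). The intervals overlapped, and the difference between these ratios was not tested. With 10 reads in at least 1 library, 1 of 4 list genes was called for ‘Bing’ over ‘Lapins’ fruit (35.6% of all genes), 1 of 3 for ‘Bing’ over ‘Rainier’ fruit (33%) and 1 of 3 for ‘Lapins’ over ‘Rainier’ fruit (15.9%). They were a second CYP82D47-like gene (Pav_sc0000890.1_g1120.1.mk), with 8 reads in ‘Bing’ against 15 in ‘Lapins’, then the CYP82D47-like gene with 128 in ‘Bing’ against 44 in ‘Rainier’, and allene oxide synthase with 21 in ‘Lapins’ against 8 in ‘Rainier’. The first and the last of these calls were lost with adjusted p and with 10 reads in both libraries, and the other with TMM library sizes. Over the leaf pairs, 3 of 5 were called for ‘Bing’ over ‘Lapins’ (23.4% of all genes), 0 of 3 for ‘Bing’ over ‘Rainier’ (23.4%) and 2 of 5 for ‘Lapins’ over ‘Rainier’ (21.1%), all of them P450 genes. With adjusted p, and with 10 reads in both libraries, 1 of these calls was left for ‘Bing’ over ‘Lapins’ leaf and 0 for ‘Lapins’ over ‘Rainier’ leaf. Allene oxide synthase was higher in ‘Bing’ leaf than in ‘Lapins’ leaf, and both CYP82D47-like genes had their highest leaf count in ‘Lapins’, at 10 and 14 reads. Such calls compare 2 libraries and not 2 cultivars.

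The genes numbered just before and after the 2 genes on their scaffolds had few reads. Chorismate mutase 2 is gene 41 of 141 listed on its scaffold. The genes before it, for a 3-hydroxyisobutyryl hydrolase and a subunit of RNA polymerases IV and V, had 14 and 22 reads over all libraries. Those after it, for translation initiation factor 5A and a POLAR protein, had 0 and 1 reads. Flavonoid 3'-monooxygenase is gene 173 of 174 on its scaffold. The 2 genes before it had 0 reads and the chaperone gene after it had 5 reads, 4 of them in ‘Bing’ fruit. None of these neighbours had more than 22 reads over the 6 libraries, against 236 of chorismate mutase 2 and 88 of flavonoid 3'-monooxygenase.

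The genes with the most like pattern were found by the root mean square difference of log2(reads per 10000 + 0.5) over the 6 libraries, after centring each gene, among 1884 genes with at least 60 reads. The added 0.5 lowers the weight of low counts, and a difference near 0 means that the levels of both genes moved in step. The median gene lay at 1.02 from chorismate mutase 2 and at 1.04 from flavonoid 3'-monooxygenase. The 2 genes lay at 1.17 from each other, and 65.2% of genes were closer to chorismate mutase 2 than flavonoid 3'-monooxygenase was. Seen from flavonoid 3'-monooxygenase, 63.2% of genes were closer than chorismate mutase 2. The patterns of the 2 genes were thus less alike than those of the median gene and either of them.

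The gene most like chorismate mutase 2 was Pav_sc0000800.1_g1580.1.mk, at a difference of 0.148, with 11, 30 and 40 reads in fruits and 13, 5 and 18 reads in leaves. The next was Pav_sc0001519.1_g030.1.mk at 0.167, with 8, 30 and 37 reads in fruits and 12, 2 and 13 reads in leaves. The fifth was at 0.210, and none of the 5 had a description in the annotation used. Among the 38 described genes the closest were the PIN2/TERF1-interacting telomerase inhibitor 1 gene at 0.615, cellulose synthase A subunit 3 at 0.646 and nucleobase-ascorbate transporter 3 at 0.672. Cellulose synthase A subunit 3, an enzyme of the primary cell wall, had 47, 43 and 68 reads in fruits and 17, 8 and 10 reads in leaves, and so lacked the high level of ‘Rainier’ leaf.

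For flavonoid 3'-monooxygenase the most like gene was Pav_sc0000138.1_g910.1.mk at 0.268, with 38, 33 and 8 reads in fruits and 11, 7 and 4 reads in leaves. The next was Pav_sc0001461.1_g390.1.mk at 0.279, with 34, 27 and 6 reads in fruits and 10, 7 and 5 reads in leaves, and the fifth was at 0.371. Both shared the high level in ‘Bing’ and ‘Lapins’ fruit and the low level in ‘Rainier’ fruit. Described genes were farther off, with diacylglycerol kinase 2, an enzyme of lipid signalling, at 0.559, a CBL-interacting kinase 5-like gene of calcium signalling at 0.562 and a translation initiation factor-like gene at 0.700. Diacylglycerol kinase 2 had 21, 23 and 13 reads in fruits and 5, 3 and 3 reads in leaves. These likenesses rest on 6 libraries and were picked as the smallest of 1884 differences.

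**Figure D4:**
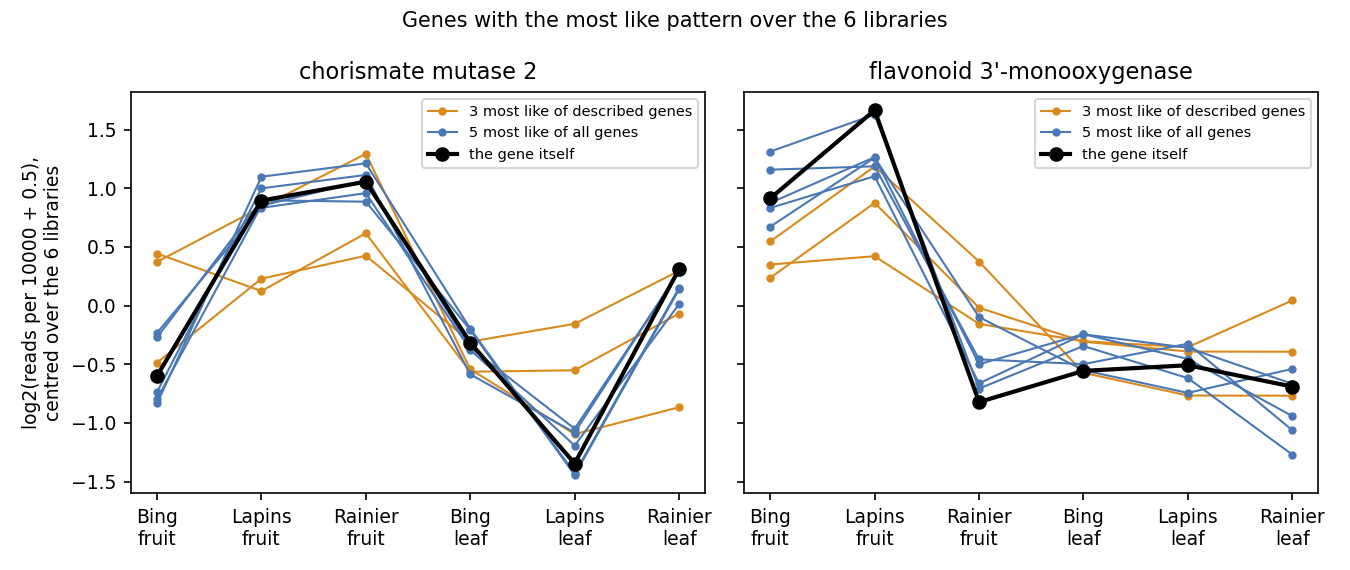
Log2(reads per 10000 + 0.5) of each gene minus its mean over the 6 libraries (vertical axis), for chorismate mutase 2 (left, black) and flavonoid 3'-monooxygenase (right, black), with the 5 most like of all genes in blue and the 3 most like of the described genes in orange. Lines join the libraries of a gene and stand for no order: the blue genes lie within a root mean square difference of 0.210 on the left and 0.371 on the right.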

How the data were processed

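Trimmed pyrosequencing reads were aligned by the authors to predicted coding sequences in CLC Genome Workbench (version 11.0.1). A read had to match over a length fraction of 0.6 at a similarity of 0.9, insertions, deletions and mismatches each cost 3, and the limit for unspecific matches was 10. The authors deposited counts of unique and of total reads per gene, which are not normalised, with TPM (not used) and RPKM, from which only the coding lengths were recovered. Reads in untranslated ends are left out by this mapping. Non-specific reads made up 1.49% to 2.28% of the total reads of a library.

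Unique reads were set against the library sum, with Clopper-Pearson intervals for shares and conditional exact intervals for ratios. Cultivar pairs were called with the Z-test of Kal, whose p covers counting error alone, at a ratio of 2 or more, 10 or more reads in at least 1 library (a reading of the study's minimum, which does not say 1 or both) and an unadjusted p up to 0.05. For fruit against leaf, the quasi-likelihood test of edgeR 4.0.16 (R 4.3.3) was run after TMM and filterByExpr, on the 3 cultivars as replicates, and calls were made under 0.05 after Benjamini-Hochberg adjustment. Its p-values rest on the spread between these libraries. A common dispersion, computed apart to describe that spread, had a square root of 0.361. Scripts were tested on simulated data.

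Fruit and leaf of a cultivar share the cultivar and the site. Over 1885 genes, the deviations of fruit and leaf from the means of their tissues had a correlation of 0.147 for ‘Bing’, -0.0315 for ‘Lapins’ and 0.103 for ‘Rainier’, and of -0.238 to 0.220 between different cultivars. Flavonoid 3'-monooxygenase did not pass the filter over all 6 libraries, so its fitted value there comes from the fit without one. Its values with a library left out come from filtered fits.

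The 2 genes and the gene lists were chosen with earlier results of these data known. The genes to name were the called genes of each list and its most read gene, the neighbours on the scaffolds, and the 5 closest of all genes (2 given by identifier) and 3 closest described genes by pattern. Names came from 581 rows of the study's annotation. The reference gene table shared 0 identifiers with the files. Alternatives were TMM, upper-quartile or trimmed library sums, total reads, DESeq2 1.42.0, no filter, the cultivar as a block, Fisher's exact test, other minimums, adjusted p and leaving out each library.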

Additional observations from a re-analysis of the deposited data

Results flagged for a closer look

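Chorismate mutase 2 had a ratio of fruit over leaf of 0.793 in ‘Bing’, below 1, where ‘Lapins’ at 6.18 and ‘Rainier’ at 1.74 lay above 1. For flavonoid 3'-monooxygenase the cultivar on the other side of 1 was ‘Rainier’, at 0.836, with ‘Bing’ at 4.08 and ‘Lapins’ at 6.97 above it. Both values below 1 have intervals that span 1, and with 1 library for each cultivar and tissue the difference between cultivars was not tested.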

How the results depend on the processing

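All 72 recomputed ratios of the 2 genes (18 ratios under TMM, upper-quartile or total-read library sums, or without the 10 most read genes of each library) kept their direction. They moved by at most 1.13-fold, with TMM. Per kilobase of coding length, the share of flavonoid 3'-monooxygenase was lower in all 6 libraries, by the longer coding sequence of that gene. It left the interval of the share of reads in ‘Lapins’ fruit (27.8%, against 38.5%), and fell by over 1.5 times in ‘Rainier’ fruit (3.18%, against 5.06%), ‘Bing’ leaf (11.6%, against 17.6%) and ‘Rainier’ leaf (6.40%, against 10%). In ‘Bing’ fruit it was 40.4%, against 52.5%.

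The fitted log2 fold change of chorismate mutase 2 for fruit over leaf was 0.83 with the cultivar as a replicate block, 0.86 with DESeq2, 0.87 with total reads and 0.97 without the filter. Leaving out 1 library each gave 0.38 to 1.30, the lowest without ‘Lapins’ leaf. That of flavonoid 3'-monooxygenase ran from 1.71 to 2.45, the highest without ‘Rainier’ fruit, and it could not be fitted where the gene failed the filter (the block, DESeq2, total reads, and without ‘Bing’ or ‘Lapins’ fruit). The block changed no call among the list genes.

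For the 2 genes themselves, alternatives chosen after seeing the data asked for 10 reads in both libraries, which left 1 of 2 calls for ‘Bing’ over ‘Rainier’ fruit, 0 of 1 for ‘Lapins’ over ‘Rainier’ fruit and 0 of 1 in each leaf pair with ‘Lapins’. Adjusted p left 0 of 1 for ‘Bing’ over ‘Lapins’ leaf. Fisher's exact test and TMM changed none of their calls.

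Of the list genes, 1 was lower in fruit, 3 without the filter, and 1 to 2 when a library was left out (2 without ‘Lapins’ fruit and without ‘Lapins’ leaf). The number higher in fruit was 1 under every alternative run. For list genes called between cultivars, at least 10 reads in both libraries left 0 of 1 for ‘Bing’ over ‘Lapins’ fruit, 0 of 1 for ‘Lapins’ over ‘Rainier’ fruit, 1 of 3 for ‘Bing’ over ‘Lapins’ leaf and 0 of 2 for ‘Lapins’ over ‘Rainier’ leaf. Adjusted p gave the same 4 numbers, though not the same gene for ‘Bing’ over ‘Lapins’ leaf. With TMM the count was 2 for ‘Bing’ over ‘Lapins’ fruit and 0 for ‘Bing’ over ‘Rainier’ fruit, where the main count was 1 in each. The cause of these moves was not tested, apart from the smaller number of genes tested under the stricter minimum. At 4 to 6 reads, no difference of flavonoid 3'-monooxygenase between leaves could be seen.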
